A study of Homo sapiens with 12 samples.

Results

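In LNCaP prostate cancer cells transfected with SRRM4, 180 of 13001 measured genes made up the group described here, genes lowered by SRRM4. They were chosen by their values in the SRRM4 and empty-vector (EV) libraries. A gene entered when its mean in CPM (counts divided by the library total and scaled alike) in SRRM4 cells was at most 0.82 of the mean in EV cells, when its highest SRRM4 library lay under its lowest EV library, and when its EV mean was at least 2 CPM. The numerical rule took 185 genes of the 12946 with such an EV mean. Of 14 genes named for removal, 5 had met it (ACPP, VIM, TRIB3, KHDRBS3 and PART1), and mitochondrially encoded genes were left out by rule. Values of these genes in SRRM4 against EV therefore describe the choice and carry no test.

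The study asked how SRRM4 and a splice form of the demethylase LSD1 change gene expression in a model of neuroendocrine prostate cancer. Cells were LNCaP of clone FGC, a line from a lymph node metastasis of prostate cancer, at passage 8. Each group held 3 libraries of polyadenylated RNA. The groups were cells given SRRM4, cells given LSD1+8a (LSD1 with the extra microexon 8a), cells given LSD1 and cells given EV. All 4 groups, EV included, were transfected transiently with a lipid reagent, with a medium change after 6 hours. All come from 1 cell line, and the sources used here give neither the promoter of the plasmids nor whether replicate libraries started as separate cultures. P-values therefore measure only how far these libraries differ, and that may be technical.

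SRRM4 acts in neurons, where it helps the spliceosome to keep microexons, very short exons that other cells mostly skip. It is raised in neuroendocrine prostate cancer, a form that arises when adenocarcinoma cells lose luminal features and gain neuronal features. LSD1, encoded by KDM1A, removes methyl groups from histone H3 as part of repressive complexes with CoREST, and its form with exon 8a is made in neurons.

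Library totals were 10876293 to 11485489 counts in SRRM4 cells, 12110101 to 13359671 in LSD1+8a cells, 11658730 to 12565335 in LSD1 cells and 12750609 to 13570740 in EV cells, so the SRRM4 libraries were the shallowest. At these depths 2 CPM stands for 21.8 to 27.1 counts per library. KDM1A averaged 2275 ± 310.3 CPM in LSD1+8a cells and 542 ± 42.5 CPM in LSD1 cells, against 96.4 ± 4.56 CPM in SRRM4 cells and 93.5 ± 0.586 CPM in EV cells (SD, n = 3 each). The table has no row under the symbol SRRM4, so the label of the SRRM4 libraries was not checked against that transcript. The luminal prostate markers used, 8 in number (KLK3, KLK2, FOLH1 and others), were all measured, and their summed level was 6953 to 7019 CPM in SRRM4 libraries, 7440 to 7780 CPM in LSD1+8a libraries, 7765 to 7965 CPM in LSD1 libraries and 7594 to 7745 CPM in EV libraries. KLK3 alone averaged 2663 ± 33.9 CPM in SRRM4 cells and 3098 ± 47.7 CPM in EV cells (SD, n = 3 each). In edgeR's quasi-likelihood test of SRRM4 against EV cells (adjusted p under 0.05), KLK3, FOLH1, TMPRSS2 and STEAP2 fell while KRT8 rose. The basal markers KRT14 and ITGA6, of 4 listed, summed to 48.3 to 52.2 CPM in SRRM4 libraries against 56.9 to 58.7 CPM in EV libraries. The endothelial marker VWF, 1 of 2 listed, was at 18.2 to 21.1 CPM in SRRM4 libraries against 23.3 to 24.6 CPM in EV libraries. The fibroblast markers COL1A1 and COL3A1, of 4 listed, summed to 23.6 to 32.1 CPM in SRRM4 libraries against 22.3 to 26.2 CPM in EV libraries. The neuroendocrine markers SYP and ENO2, of 7 listed, summed to 55.8 to 65.2 CPM in SRRM4 libraries against 28.9 to 39.0 CPM in EV libraries. SYP alone averaged 27.2 ± 1.33 CPM in SRRM4 cells and 2.49 ± 0.596 CPM in EV cells (SD, n = 3 each). The higher sum therefore lay mostly in SYP and does not show a rise of ENO2. No leukocyte marker was among the measured genes. The lower depth and the lower luminal sum move with the genes described here, and their part in the values was not tested.

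RefSeq promoter sequences (build GRCh38.p14, 250 bases before to 50 after the start) were matched by symbol for 96 of the 180 genes, too few for a comparison of motif shares between these genes and all others, and that check is void. Parts of 3 promoters are shown. MAPK10 was the gene with a RefSeq promoter of lowest ratio, and SORL1 and NET1 were taken from the 6 genes of highest EV level. SORL1 and NET1 hold CACGTG, while the promoters of the others of those 6, GTPBP2, TSC22D3, SYPL1 and ERN1, do not. Capitals mark TGACGTCA, the cAMP response element, in MAPK10, and CACGTG, an E-box, in SORL1 and NET1. Both motifs read the same on either strand. TGACGTCA occurs in 3.37% and CACGTG in 10.5% of the 9812 matched promoters of genes with an EV mean of at least 2 CPM. This describes the letters and not binding.

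MAPK10, chr4:86360073-86360192, minus strand: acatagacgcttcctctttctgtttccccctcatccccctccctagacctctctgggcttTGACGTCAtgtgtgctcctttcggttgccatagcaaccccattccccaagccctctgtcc

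SORL1, chr11:121452077-121452196, plus strand: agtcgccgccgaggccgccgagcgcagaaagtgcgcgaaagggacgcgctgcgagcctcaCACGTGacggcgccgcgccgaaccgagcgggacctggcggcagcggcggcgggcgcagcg

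NET1, chr10:5446460-5446550, plus strand: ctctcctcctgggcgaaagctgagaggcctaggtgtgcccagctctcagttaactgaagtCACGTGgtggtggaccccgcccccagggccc

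The 180 genes differed from EV by modest amounts, and most were low in expression. Their ratios of SRRM4 to EV mean CPM had a median of 0.766 and a lower quartile of 0.717, and 106 genes had a ratio over 0.75. Only 6 genes had a ratio of 0.5 or less. The EV mean of the 180 genes ran between 2.43 and 142 CPM with a median of 5.99 CPM, against a median of 30.7 CPM over all genes at 2 CPM or more. The rule took 74 genes, or 5.14%, of those with an EV mean of 2 to 5 CPM. It took 81 genes (2.35%) between 5 and 20 CPM and 25 genes (0.310%) at 20 CPM or more. The median ratio was 0.743, 0.774 and 0.794 in these 3 classes of rising level. Just inside the threshold lay RP11-705C15.2, PDIA3P and FAHD2CP with ratios between 0.8192 and 0.8196. Just outside it lay GCA at 0.8204, CYTH3 at 0.821 and MICU2 at 0.823.

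**Figure D1:**
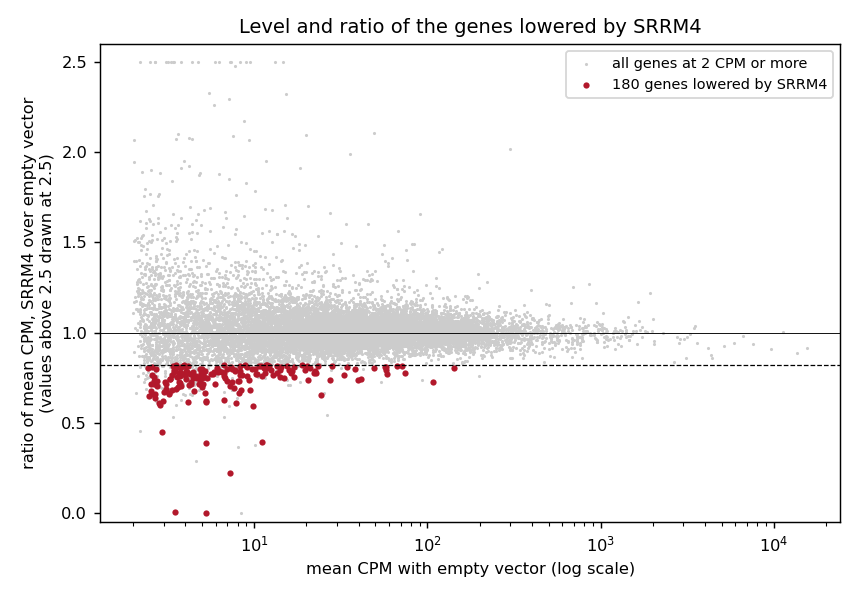
Mean CPM in EV cells (x axis, log scale) and ratio of mean CPM, SRRM4 over EV (y axis), for all genes at 2 CPM or more in grey and the 180 genes in red. The dashed line is the ratio of 0.82, and most of the 180 genes sit just under it at low levels, with 6 at a ratio of 0.5 or less.

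Among genes of the stress response, 4 were prominent by level or by list. TSC22D3 encodes GILZ, a leucine zipper protein induced by glucocorticoids. It had 76.8, 74.8 and 83.3 CPM in the SRRM4 libraries, 98.1, 96.0 and 100.2 CPM in the LSD1+8a libraries, 106, 98.6 and 112 CPM in the LSD1 libraries and 107, 108.5 and 107 CPM in the EV libraries. The SRRM4 libraries lay under the other 9, the LSD1+8a libraries lay under every EV library, and the LSD1 libraries overlapped with EV. The SRRM4 mean was 27.3% lower than the EV mean. GTPBP2, a GTPase that helps to rescue stalled ribosomes, had 118, 108 and 116.7 CPM in the SRRM4 libraries, 131, 147 and 153 CPM in the LSD1+8a libraries, 143, 139 and 144 CPM in the LSD1 libraries and 137, 149.7 and 139.6 CPM in the EV libraries. Of the 180 genes it had the highest level, and its 3 SRRM4 libraries were the lowest 3 of 12 while the other groups overlapped. ERN1 encodes IRE1 alpha, a sensor of unfolded protein in the endoplasmic reticulum. It had 55.1, 52.9 and 54.9 CPM in the SRRM4 libraries, 65.7, 66.8 and 64.7 CPM in the LSD1+8a libraries, 63.6, 62.6 and 70.0 CPM in the LSD1 libraries and 64.4, 69.5 and 66.3 CPM in the EV libraries. Here too the SRRM4 libraries lay apart below the other 9, which overlapped, and in TPM (a scale that also divides by transcript length) its ratio to EV was 0.884. FAM129A, a protein induced by stress in the endoplasmic reticulum, had 15.8, 14.4 and 17.1 CPM in the SRRM4 libraries, 21.5, 25.7 and 23.7 CPM in the LSD1+8a libraries, 24.2, 22.5 and 23.6 CPM in the LSD1 libraries and 24.4, 23.4 and 24.6 CPM in the EV libraries. Its SRRM4 mean was 34.7% lower than the EV mean, the lowest ratio (0.653) among the 25 genes at 20 CPM or more, and the other 9 libraries overlapped. ERO1LB, an oxidoreductase that helps to form disulfide bonds in secreted proteins, averaged 6.94 ± 0.782 CPM in SRRM4 cells, 8.63 ± 1.04 CPM in LSD1+8a cells, 9.02 ± 1.78 CPM in LSD1 cells and 9.12 ± 0.753 CPM in EV cells (SD, n = 3 each).

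FAM129A and ERN1 belong to 2 wider lists. Of 54 measured genes of the ATF4 and amino acid response outside the 180, 16 fell and 3 rose in SRRM4 against EV cells. These were called at an adjusted p under 0.05 in edgeR's quasi-likelihood test. FAM129A was the only one of the 180 genes in that list, from which TRIB3 had also met the numerical rule and was removed by name. Over all 13001 genes the same test called 3.22% lower and 4.47% higher. The median log2 fold change was -0.09 for this list outside the 180 genes and -0.00 for all genes. Among 24 genes of protein folding in the endoplasmic reticulum outside the 180, 7 fell and 0 rose. ERN1 was the only one of the 180 genes in that list. The ones that fell outside the 180 genes included the chaperones HSP90B1 and CALR and the sensor ATF6. GTPBP2, ERN1 and ERO1LB belong to a further list of unfolded protein sensing and oxidation in the endoplasmic reticulum. That list was drawn up after the values were seen. Of its 25 measured genes outside the 180, 2 fell (ATF6 and TRIB3) and 1 rose. TSC22D3 is in none of the lists.

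Genes known from neurons and vesicles were also among the 180. RIMS1, a scaffold of the presynaptic active zone, had 31.2, 30.5 and 31.2 CPM in the SRRM4 libraries, 37.5, 45.3 and 41.9 CPM in the LSD1+8a libraries, 39.4, 41.6 and 40.6 CPM in the LSD1 libraries and 42.4, 40.3 and 41.9 CPM in the EV libraries. Its SRRM4 libraries agreed closely with each other and lay under the other 9. SYPL1, a vesicle membrane protein related to synaptophysin, had 59.9, 48.5 and 64.5 CPM in the SRRM4 libraries, 74.5, 72.3 and 70.7 CPM in the LSD1+8a libraries, 69.4, 79.0 and 73.9 CPM in the LSD1 libraries and 72.6, 71.4 and 78.1 CPM in the EV libraries. Its SRRM4 libraries varied more than those of RIMS1, with the second library lowest, and still did not overlap with the others. MAPK10, the JNK3 kinase of the nervous system, had 1.65, 1.37 and 2.12 CPM in the SRRM4 libraries, 2.69, 2.71 and 3.14 CPM in the LSD1+8a libraries, 2.79, 3.0 and 2.63 CPM in the LSD1 libraries and 2.75, 2.14 and 3.70 CPM in the EV libraries. The highest SRRM4 library came close to the lowest EV library of this weakly expressed gene, and its ratio to EV was 0.599 in CPM and 0.819 in TPM. SV2C, a glycoprotein of synaptic vesicles, had 2.96, 3.93 and 4.5 CPM in the SRRM4 libraries, 5.69, 5.74 and 5.45 CPM in the LSD1+8a libraries, 4.93, 6.00 and 5.60 CPM in the LSD1 libraries and 4.71, 4.72 and 5.29 CPM in the EV libraries. All 3 LSD1+8a libraries of SV2C were above every EV library. GPM6B, a membrane proteolipid of neurons and glia, averaged 2.96 ± 0.472 CPM in SRRM4 cells, 4.36 ± 0.602 CPM in LSD1+8a cells, 3.51 ± 0.514 CPM in LSD1 cells and 4.19 ± 0.739 CPM in EV cells (SD, n = 3 each). RIMS1 and MAPK10 are in a list of 51 neuronal and synaptic genes. Of the 49 outside the 180, 17 rose and 2 fell (PPFIA2 and NRP1) in SRRM4 against EV cells by edgeR's test. These are 34.7% and 4.08%, against 4.47% and 3.22% of all genes, so RIMS1 and MAPK10 stood on the smaller side of that list. None of the 65 measured hosts of neural microexons was among the 180 genes, which make up only 1.39% of all genes at 2 CPM or more.

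SORL1, a sorting receptor that returns amyloid precursor protein and other cargo to the trans-Golgi network, had 44.7, 44.6 and 45.3 CPM in the SRRM4 libraries, 52.9, 57.1 and 58.0 CPM in the LSD1+8a libraries, 53.9, 54.5 and 57.2 CPM in the LSD1 libraries and 55.6, 60.2 and 58.7 CPM in the EV libraries. Its SRRM4 libraries were the lowest 3, and all 3 varied little. In TPM the ratio of SORL1 was 0.947, so most of its difference in CPM is not seen on that scale.

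**Figure D2:**
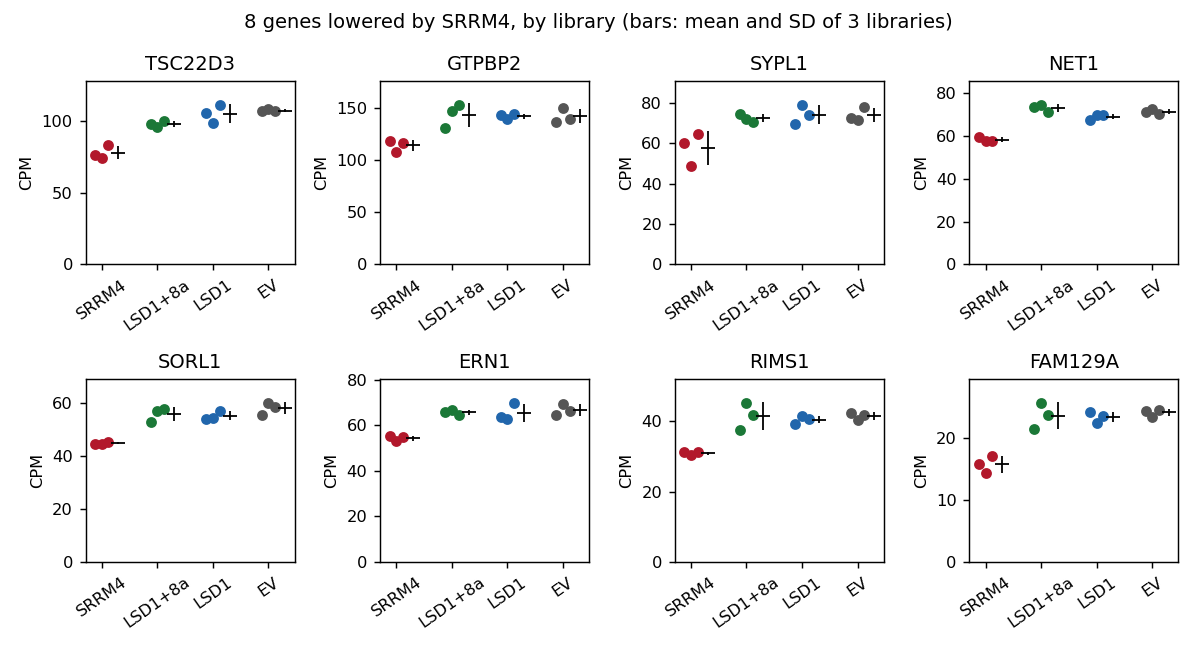
CPM in every library of 8 of the 180 genes, by group, with SRRM4 at the left and EV at the right. Points are libraries and the bars beside them are the mean and SD of 3 libraries. The SRRM4 libraries lie under all 9 others in each panel.

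Regulators of the actin cytoskeleton were among the 180 genes as well. NET1, a guanine nucleotide exchange factor, had 59.7, 57.9 and 57.6 CPM in the SRRM4 libraries, 73.7, 74.6 and 71.2 CPM in the LSD1+8a libraries, 67.7, 69.8 and 70.0 CPM in the LSD1 libraries and 71.4, 72.7 and 70.3 CPM in the EV libraries. The SRRM4 libraries were low and close together, and the LSD1 libraries all lay under the lowest EV library by a small margin. ARHGEF2, an exchange factor bound to microtubules, averaged 46.2 ± 3.25 CPM in SRRM4 cells, 56.5 ± 5.32 CPM in LSD1+8a cells, 54.2 ± 4.09 CPM in LSD1 cells and 56.9 ± 7.97 CPM in EV cells (SD, n = 3 each). IQGAP2, a scaffold that binds actin and Rac, averaged 17.0 ± 1.66 CPM in SRRM4 cells, 22.7 ± 2.10 CPM in LSD1+8a cells, 22.6 ± 1.62 CPM in LSD1 cells and 22.0 ± 0.545 CPM in EV cells (SD, n = 3 each). SRGAP2B, a duplicate of SRGAP2, was also among the 180, and these duplicates are so alike that its counts may hold reads of its relatives.

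Receptors and signalling proteins were mostly at low levels. CXCR4, the receptor of the chemokine CXCL12, had 2.18, 2.83 and 2.67 CPM in the SRRM4 libraries, 4.04, 4.46 and 2.23 CPM in the LSD1+8a libraries, 4.06, 3.09 and 3.40 CPM in the LSD1 libraries and 5.41, 3.98 and 3.02 CPM in the EV libraries. Library 3 of the LSD1+8a group lay within the SRRM4 range, and the lowest EV library lay just above that range. LPAR3, a receptor of lysophosphatidic acid, averaged 39.4 ± 2.53 CPM in SRRM4 cells, 49.0 ± 2.36 CPM in LSD1+8a cells, 49.7 ± 0.459 CPM in LSD1 cells and 49.0 ± 1.08 CPM in EV cells (SD, n = 3 each). INPP4B, a phosphatase of phosphoinositides, had 9.93, 8.68 and 10.3 CPM in the SRRM4 libraries, 13.7, 14.3 and 13.1 CPM in the LSD1+8a libraries, 10.4, 12.3 and 11.5 CPM in the LSD1 libraries and 12.1, 11.1 and 12.1 CPM in the EV libraries. All LSD1+8a libraries of INPP4B were above every EV and LSD1 library, and in TPM its ratio of SRRM4 to EV was 0.928. FLT4, the receptor VEGFR3 of lymphatic growth factors, averaged 3.49 ± 0.305 CPM in SRRM4 cells, 4.85 ± 0.308 CPM in LSD1+8a cells, 3.60 ± 0.541 CPM in LSD1 cells and 4.66 ± 0.268 CPM in EV cells (SD, n = 3 each). RCAN3, an inhibitor of the phosphatase calcineurin, averaged 30.2 ± 2.49 CPM in SRRM4 cells, 37.5 ± 2.77 CPM in LSD1+8a cells, 36.9 ± 0.413 CPM in LSD1 cells and 38.0 ± 2.59 CPM in EV cells (SD, n = 3 each). CD274, the immune checkpoint ligand PD-L1, averaged 9.0 ± 0.471 CPM in SRRM4 cells, 11.9 ± 2.94 CPM in LSD1+8a cells, 10.6 ± 0.779 CPM in LSD1 cells and 11.6 ± 0.576 CPM in EV cells (SD, n = 3 each).

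Genes of the cilium, and genes of hedgehog signalling, the pathway read out at the primary cilium, were grouped after their values were seen. GLI3, a transcription factor at the end of that pathway, averaged 4.06 ± 0.387 CPM in SRRM4 cells, 5.44 ± 0.0676 CPM in LSD1+8a cells, 5.54 ± 0.556 CPM in LSD1 cells and 5.16 ± 0.479 CPM in EV cells (SD, n = 3 each). DISP1, which releases hedgehog ligands from cells that make them, averaged 5.91 ± 0.246 CPM in SRRM4 cells, 6.45 ± 0.352 CPM in LSD1+8a cells, 6.57 ± 0.763 CPM in LSD1 cells and 7.31 ± 0.509 CPM in EV cells (SD, n = 3 each). Neither passed edgeR's test in SRRM4 against EV cells. The centrosomal proteins CNTLN and CEP44 were also among the 180. CNTLN averaged 12.6 ± 0.274 CPM in SRRM4 cells, 14.9 ± 1.0 CPM in LSD1+8a cells, 15.9 ± 0.918 CPM in LSD1 cells and 15.9 ± 0.716 CPM in EV cells (SD, n = 3 each). Among 110 measured genes of a list of cilium, axoneme and centrosome outside the 180, 8 fell and 3 rose by the same test. These are 7.27% and 2.73%, against 3.22% and 4.47% of all genes. Genes of intraflagellar transport were on both sides, with IFT57 and IFT80 lower and WDR35 higher in SRRM4 cells.

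Cell cycle and nuclear genes were also present. CDC25C, the phosphatase that starts mitosis by activating CDK1, had 14.3, 14.7 and 17.1 CPM in the SRRM4 libraries, 15.1, 16.6 and 16.6 CPM in the LSD1+8a libraries, 18.1, 15.2 and 15.3 CPM in the LSD1 libraries and 17.5, 19.3 and 19.5 CPM in the EV libraries. The LSD1+8a libraries lay under every EV library and within the range of the SRRM4 libraries. It was the only one of the 180 genes in a list of 61 genes of G2/M and mitosis, of which 13 fell and 0 rose in SRRM4 against EV cells. None of 42 genes of DNA replication and S phase was among the 180, which make up 1.39% of all genes at 2 CPM or more. ANP32E, a chaperone of the histone variant H2A.Z, averaged 22.8 ± 1.41 CPM in SRRM4 cells, 28.4 ± 0.308 CPM in LSD1+8a cells, 27.8 ± 2.62 CPM in LSD1 cells and 28.1 ± 1.33 CPM in EV cells (SD, n = 3 each). TAF1B, a factor of RNA polymerase I, averaged 5.99 ± 0.933 CPM in SRRM4 cells, 7.19 ± 0.513 CPM in LSD1+8a cells, 7.31 ± 0.651 CPM in LSD1 cells and 8.20 ± 0.447 CPM in EV cells (SD, n = 3 each). KLF8, a zinc finger transcription factor, had 2.26, 2.29 and 1.84 CPM in the SRRM4 libraries, 2.47, 3.27 and 2.40 CPM in the LSD1+8a libraries, 3.10, 3.60 and 1.95 CPM in the LSD1 libraries and 2.98, 3.02 and 3.63 CPM in the EV libraries. Library 3 of the LSD1 group lay in the SRRM4 range.

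Other genes encode secreted proteins, transporters and a hypoxia target. PRSS1, a trypsinogen, had 3.83, 3.11 and 2.85 CPM in the SRRM4 libraries, 2.99, 6.21 and 6.19 CPM in the LSD1+8a libraries, 5.41, 4.97 and 5.09 CPM in the LSD1 libraries and 4.78, 6.78 and 4.31 CPM in the EV libraries. Its first LSD1+8a library stood with the SRRM4 libraries. THSD4, a microfibril-associated protein of the matrix, had 3.74, 3.02 and 3.59 CPM in the SRRM4 libraries, 4.64, 4.62 and 5.12 CPM in the LSD1+8a libraries, 5.33, 5.40 and 5.60 CPM in the LSD1 libraries and 4.47, 4.94 and 6.12 CPM in the EV libraries. FSTL1, a secreted glycoprotein related to follistatin, had 6.79, 6.95 and 8.28 CPM in the SRRM4 libraries, 8.16, 9.56 and 10.4 CPM in the LSD1+8a libraries, 9.55, 8.92 and 11.6 CPM in the LSD1 libraries and 8.86, 9.29 and 9.07 CPM in the EV libraries. For THSD4 the SRRM4 libraries lay below all others, and for FSTL1 1 LSD1+8a library overlapped with them. Both are in a list of 39 matrix and secreted genes, of which 3 fell and 5 rose in SRRM4 against EV cells. The transporter genes SLC22A10 and SLC52A3, the second a riboflavin carrier, were the only ones of 206 measured solute carriers. SLC22A10 had 4.53, 3.29 and 4.69 CPM in the SRRM4 libraries, 6.81, 6.29 and 5.04 CPM in the LSD1+8a libraries, 5.09, 5.06 and 6.03 CPM in the LSD1 libraries and 6.90, 6.93 and 6.20 CPM in the EV libraries. SLC52A3 had 6.62, 6.21 and 5.52 CPM in the SRRM4 libraries, 6.29, 7.65 and 6.52 CPM in the LSD1+8a libraries, 7.08, 6.09 and 7.22 CPM in the LSD1 libraries and 7.06, 8.25 and 8.01 CPM in the EV libraries. In SLC22A10 the LSD1 libraries lay between the SRRM4 and EV libraries without overlap, and in SLC52A3 both LSD1 forms overlapped with SRRM4. ANKRD37, a target of the hypoxia factor HIF1, had 7.84, 6.40 and 6.34 CPM in the SRRM4 libraries, 7.26, 8.21 and 9.25 CPM in the LSD1+8a libraries, 9.79, 9.86 and 9.93 CPM in the LSD1 libraries and 8.71, 10.7 and 8.46 CPM in the EV libraries. The LSD1+8a libraries were under every LSD1 library, and 1 of them was within the SRRM4 range. Of the 34 genes in the hypoxia list, 7 fell and 0 rose in LSD1+8a against LSD1 cells by edgeR's test, and ANKRD37 was not among those 7. That test called 0.323% of all genes in either direction.

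**Figure D3:**
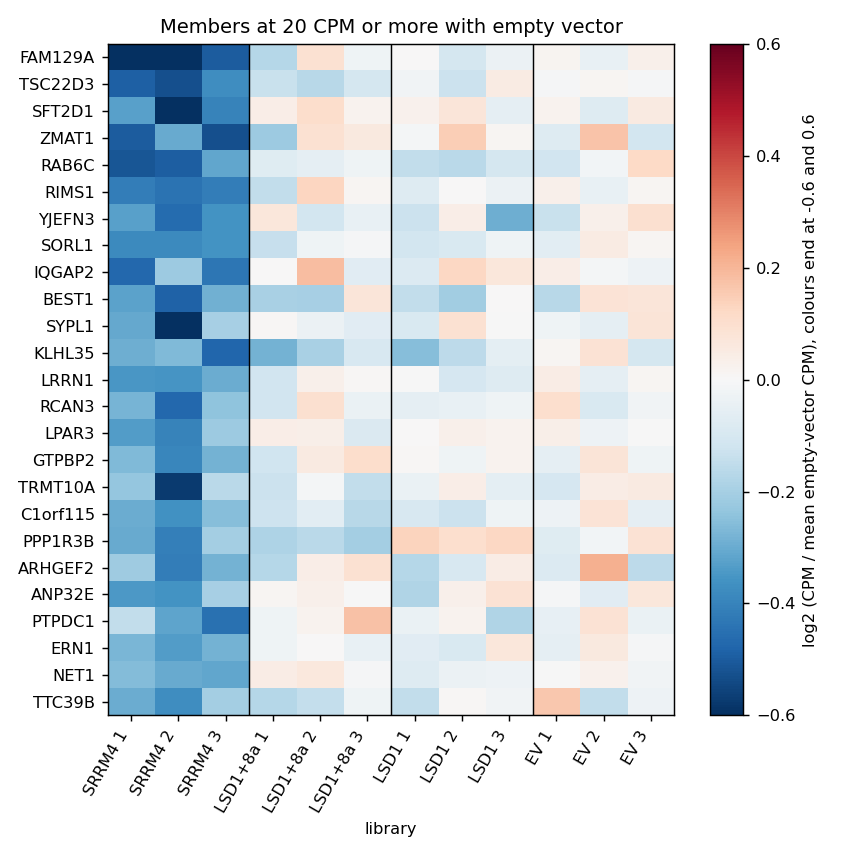
Log2 of CPM over the mean EV CPM in all 12 libraries for the 25 genes with an EV mean of 20 CPM or more, with SRRM4 libraries at the left and EV at the right. Rows run from the lowest ratio (FAM129A, 0.653) to the highest (TTC39B), and the colour scale ends at -0.6 and 0.6. The SRRM4 columns are blue throughout, and the LSD1+8a and LSD1 columns are near 0 for most genes.

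Noncoding, clone-named and duplicated genes were a large share of the set. Clone names, given to loci without an approved symbol, were carried by 45 of the 180 genes (25%), against 6.98% of all genes at 2 CPM or more. At 2 to 5 CPM the shares were 32.4% of the 74 genes and 27.9% of all genes, at 5 to 20 CPM 25.9% and 10.9%, and at 20 CPM or more 0% and 1.55%. There were 7 genes with antisense names. The genes they are named after were measured for 6 of them. Of these, CERS6 was higher in SRRM4 than in EV cells (118 ± 5.16 CPM in SRRM4 cells and 107 ± 6.62 CPM in EV cells, log2 fold change 0.13, edgeR adjusted p = 0.0477), and the other 5 did not pass the test. CERS6 averaged 116.1 ± 2.24 CPM in LSD1+8a cells and 116.6 ± 3.86 CPM in LSD1 cells (SD, n = 3 each). Its higher mean over EV was therefore shared by the LSD1+8a and LSD1 groups and was not particular to SRRM4 cells. Whether the counting used strand is not given in the sources used here, and without strand the reads of a gene and its antisense partner cannot be told apart. The 4 long intergenic noncoding RNAs, LINC00623, LINC00940, LINC00526 and LINC00898, had ratios of 0.667 to 0.787. LINC00940 averaged 3.60 ± 0.432 CPM in SRRM4 cells, 4.37 ± 0.621 CPM in LSD1+8a cells, 4.76 ± 0.413 CPM in LSD1 cells and 4.86 ± 0.153 CPM in EV cells (SD, n = 3 each).

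Several of the 180 genes have near-identical copies, so their counts are uncertain. HMGB1P5, a processed copy of HMGB1, had 5.22, 4.84 and 4.32 CPM in the SRRM4 libraries, 7.93, 8.05 and 9.08 CPM in the LSD1+8a libraries, 7.32, 4.37 and 10.8 CPM in the LSD1 libraries and 6.51, 7.07 and 9.97 CPM in the EV libraries. The second LSD1 library lay in the SRRM4 range. HMGB1 itself, far more abundant, averaged 223 ± 0.345 CPM in SRRM4 cells and 227 ± 3.22 CPM in EV cells (SD, n = 3 each) and did not pass edgeR's test. Of 7 parent or sister genes compared in this way, 3 fell in SRRM4 cells (EIF4B, PMS2 and RAB6A), with ratios of 0.924, 0.881 and 0.891. The matching copies EIF4BP6, PMS2P4 and RAB6C were among the 180 genes. PCDHGA6 and PCDHGA7 are variable first exons of the gamma protocadherin cluster, cell adhesion proteins of neurons, and share their constant exons. PCDHGA6 had 5.40, 7.04 and 6.80 CPM in the SRRM4 libraries, 7.71, 7.57 and 9.50 CPM in the LSD1+8a libraries, 8.83, 6.86 and 8.66 CPM in the LSD1 libraries and 10.5, 8.11 and 9.67 CPM in the EV libraries. PCDHGA7 had 4.53, 5.12 and 6.53 CPM in the SRRM4 libraries, 6.74, 6.93 and 8.01 CPM in the LSD1+8a libraries, 6.37, 7.29 and 8.49 CPM in the LSD1 libraries and 7.53, 7.96 and 6.80 CPM in the EV libraries. Among the other 20 measured clustered protocadherins 0 fell and 0 rose in SRRM4 against EV cells by edgeR's test, against 3.22% and 4.47% of all genes. Histone HIST1H4E, ribosomal protein copy RPL3P4 and the zinc finger genes ZNF846 and ZNF19 had ratios of 0.810, 0.770, 0.745 and 0.771, each at an EV mean between 3.78 and 5.07 CPM.

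The 6 genes with a ratio of 0.5 or less varied widely within groups. CERS6-AS1, antisense to the ceramide synthase gene CERS6, had 0 counts in each SRRM4 library, 44, 47 and 0 counts in the LSD1+8a libraries, 0, 0 and 78 counts in the LSD1 libraries and 121, 58 and 26 counts in the EV libraries. Zero counts therefore also occurred in 3 libraries outside SRRM4. DYX1C1-CCPG1, a readthrough of 2 neighbouring genes, had 1, 0 and 0 counts in the SRRM4 libraries, 42, 6 and 19 counts in the LSD1+8a libraries, 0, 27 and 33 counts in the LSD1 libraries and 32, 24 and 81 counts in the EV libraries. Its 2 parts did not pass edgeR's test in SRRM4 against EV cells. CCPG1 averaged 44.4 ± 7.33 CPM in SRRM4 cells and 44.6 ± 0.955 CPM in EV cells (SD, n = 3 each). DYX1C1, a weakly expressed gene, averaged 3.82 ± 0.953 CPM in SRRM4 cells and 2.785 ± 1.04 CPM in EV cells (SD, n = 3 each). Its log2 fold change was 0.44 with SE 0.254, so a difference at this level is not excluded. CTD-2314B22.1 had 19, 20 and 15 counts in the SRRM4 libraries, 148, 156 and 138 counts in the LSD1+8a libraries, 153, 121 and 22 counts in the LSD1 libraries and 25, 169 and 96 counts in the EV libraries. The EV libraries of this gene spanned almost the whole range of the other groups. The remaining 3, RP11-512M8.5, CTC-432M15.3 and RP11-231C14.3, also varied within groups, with 0 counts in 1 SRRM4 library of the first and the second. None of the 6 passed edgeR's test in SRRM4 against EV cells.

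**Figure D4:**
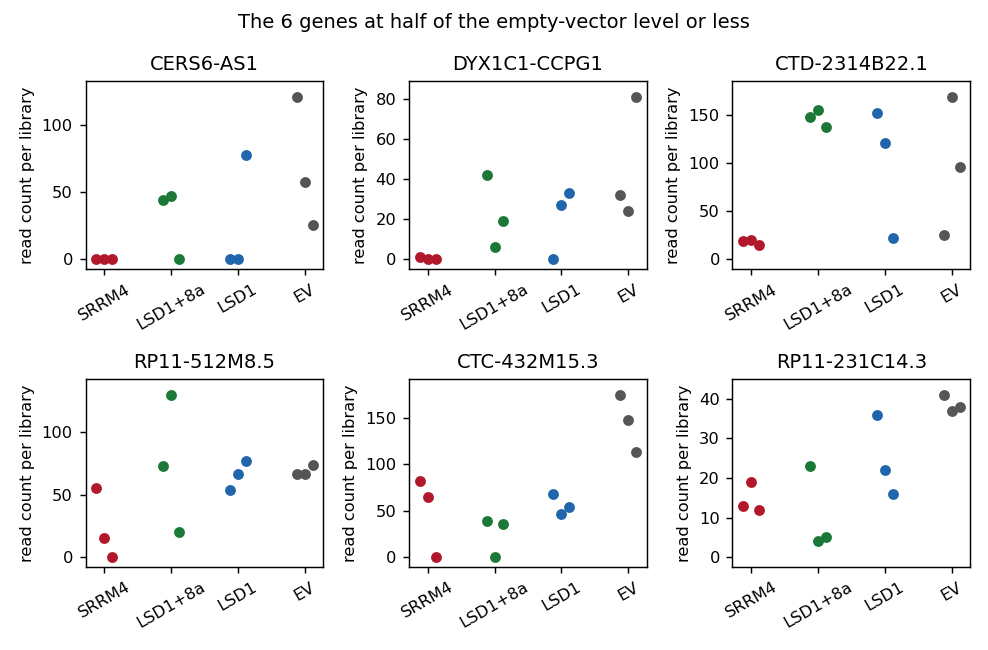
Read counts in every library of the 6 genes with a ratio of 0.5 or less, by group, with SRRM4 at the left. Each panel has its own linear scale. Libraries of 1 group lie far apart in most panels.

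Across the other groups, the 180 genes stayed near the EV level. The median ratio over EV was 0.942 in LSD1+8a cells and 0.940 in LSD1 cells, against 1.01 in both over all genes at 2 CPM or more. Because a low EV library keeps a gene out and a high one lets it in, both medians hold part of the choice itself, and they share the EV libraries. In 126 genes the LSD1+8a mean lay between the SRRM4 and EV means, in 49 at or above the EV mean and in 5 below the SRRM4 mean. The same counts for LSD1 were 132, 45 and 3. All 3 LSD1+8a libraries lay above every SRRM4 library in 109 genes (60.6%), against 13.2% of all genes. For LSD1 this held in 95 genes (52.8%), against 13.0% of all genes. All 3 libraries lay below every EV library in 24 genes (13.3%) for LSD1+8a, against 3.69% of all genes, and in 22 genes (12.2%) for LSD1, against 4.07%. In 72 genes (40.0%) the SRRM4 libraries lay below all 9 others, as in 4.63% of all genes. Since these counts use the libraries of the rule, they describe the genes chosen.

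Calls by edgeR's quasi-likelihood test at an adjusted p under 0.05 were likewise counted without reading them as evidence. In SRRM4 against EV cells 52 of the 180 genes (28.9%) were called lower, against 3.22% of all genes. In SRRM4 against LSD1+8a cells 33 were called lower, against 3.17% of all genes, and in SRRM4 against LSD1 cells 39, against 2.67%. In LSD1+8a against EV cells 0 were called lower, against 0.0615% of all genes, and DESeq2 called 1 lower, against 0.0692%. At an unadjusted p under 0.05 in edgeR's test 13 were lower and 1 higher, against 3.23% and 3.59% of all genes. In LSD1 against EV cells 0 were called lower, against 0.0538% of all genes, and limma-voom also called 0. At an unadjusted p under 0.05 in edgeR's test 17 were lower and 0 higher, against 2.8% and 3.09% of all genes. The authors' deposited table called 26 of the 180 genes lower in SRRM4 against EV cells, and 235 of all 13001 genes.

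The part of the SRRM4 difference that the choice brings was measured by applying the rule to the libraries of 2 replicate numbers and reading the ratio in the pair with the third number. It chose 359, 330 and 378 genes with replicate 1, 2 and 3 held out, of which 155, 140 and 157 were among the 180. The median ratio of SRRM4 to EV in the libraries used was 0.765, 0.761 and 0.768, and in the held-out pair it was 0.912, 0.915 and 0.913. Over all genes the held-out median was 1.01, 1.005 and 1.01. The held-out ratio was below 1 in 67.1, 64.8 and 70.6% of the chosen genes, against 45.1, 47.9 and 46.0% of all genes. It was at most 0.82 in 30.4, 35.1 and 27.8% of the chosen genes, against 5.17, 6.88 and 5.43% of all genes. Chosen genes with an EV mean of 20 CPM or more, numbering 50, 27 and 52, were below 1 in 82, 88.9 and 88.5% of cases, against 46.1, 46.7 and 45.4% of all genes at that level. Against the same held-out EV library the medians of the chosen genes were 1.033, 1.002 and 1.007 in LSD1+8a cells. In LSD1 cells they were 1.011, 0.997 and 1.002. The median difference of the chosen genes was therefore smaller in libraries the rule had not used than in those it had.

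**Figure D5:**
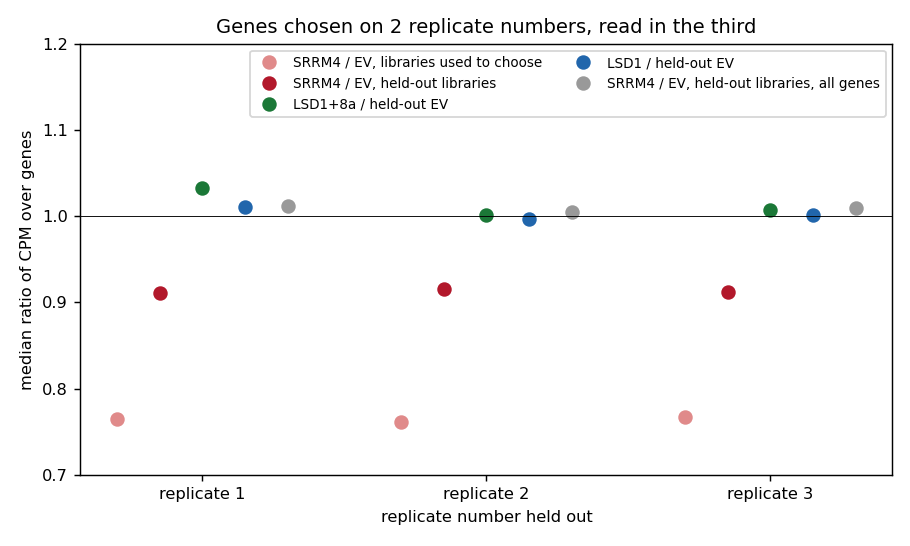
Median ratios over genes chosen on 2 replicate numbers, by the number held out. SRRM4 over EV is near 0.76 in the libraries used and near 0.91 in the held-out pair, and LSD1+8a and LSD1 over the held-out EV library are near 1, as are all genes (grey).

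The comparison of LSD1+8a with LSD1 sets no library behind the choice against another, but its test shares 1 estimate of the spread with those libraries. Of the 180 genes 1 was called (0.556%), against 0.323% of all genes, a share near the background. With only these 2 groups fitted, the same gene was the only 1 called, against 0.377% of all genes. That gene was PPP1R3B, which encodes a subunit that directs protein phosphatase 1 to glycogen. It had 30.2, 30.7 and 29.8 CPM in the LSD1+8a libraries and 37.6, 36.9 and 37.4 CPM in the LSD1 libraries, beside 27.9, 25.9 and 29.8 CPM in the SRRM4 libraries and 32.7, 33.9 and 36.4 CPM in the EV libraries. The LSD1+8a libraries lay under every LSD1 library and every EV library, and the LSD1 libraries lay above every EV library. The log2 fold change of LSD1+8a against LSD1 was -0.30 with SE 0.0627 and an edgeR adjusted p of 0.0119, and it was lower in 3 of 3 libraries. The fold change was -0.33 to -0.29 in every alternative fit, but the call was lost with DESeq2 (adjusted p = 0.11), on log2 TPM, and without LSD1+8a library 3 (adjusted p = 0.0729), LSD1 library 1 (adjusted p = 0.0958) or LSD1 library 3 (adjusted p = 0.0621). Without that last library another of the 180 genes, RP11-66N24.4, was called instead, and it was higher in LSD1+8a cells. KDM1A differed between these groups by a log2 fold change of 2.07, so the form of LSD1 and its level cannot be told apart.

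At an unadjusted p under 0.05 in edgeR's test, 7 of the 180 genes were lower and 4 higher in LSD1+8a than in LSD1 cells. Over all genes 3.25% were lower and 2.96% higher. The median log2 fold change was 0.01 for the 180 genes and -0.00 for all genes. On log2(TPM + 1) the median of the 180 genes was -0.01, so its sign depends on the scale. The LSD1+8a libraries lay below every LSD1 library in 7 genes (3.89%), against 5.47% of all genes, and above every LSD1 library in 14 genes (7.78%), against 6.16% of all genes. Next to PPP1R3B by p came GADD45G, a growth arrest and DNA damage protein, among genes with an approved symbol. GADD45G averaged 14.5 ± 1.93 CPM in LSD1+8a cells and 17.9 ± 0.708 CPM in LSD1 cells (SD, n = 3 each), with a log2 fold change of -0.30 and an edgeR adjusted p of 0.317. INPP4B followed with a log2 fold change of 0.27 and an edgeR adjusted p of 0.574. Neither passed the test.

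The deposited TPM values gave the same direction for most of the 180 genes. The SRRM4 mean TPM was lower than the EV mean in 177 genes, and the median ratio was 0.769. The whole rule, applied to TPM, held for 98 of them. It was not met by the others because 24 had an EV mean under 2 TPM, a further 32 a ratio over 0.82 and the last 26 overlapping libraries. The 3 genes with a higher mean TPM in SRRM4 cells were ARAP2, AKAP6 and CCDC30, with TPM ratios of 1.74, 1.16 and 1.23 and CPM ratios of 0.753, 0.800 and 0.748. Among the genes with values in every library, the TPM ratio was also nearer 1 by more than the spread between libraries for THSD4 (0.80), KLF8 (0.827) and ZNF846 (0.841), beside SORL1, ERN1, INPP4B and MAPK10, and lower for NET1 (0.745) and RIMS1 (0.691). For ARAP2, AKAP6 and CCDC30 the direction depends on whether counts or TPM are read.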

How the data were processed

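RNA-seq was carried out on 12 libraries of LNCaP cells, 3 in each of 4 groups, named from the sample titles. The authors deposited whole-number counts and TPM per gene, and a table with log2 fold changes and adjusted p-values of each transfection against EV, per the file headers. STAR 2.5.3a and RSEM 1.2.31 are named, with the build hg19 and no role for each, per the submitters' processing notes. CPM was computed as count over library total, and means ± SD are over 3 libraries.

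Counts were tested in edgeR 4.0.16 (R 4.3.3; TMM factors, robust quasi-likelihood, 1 model of 4 groups, Benjamini-Hochberg over 13001 genes, called under 0.05), which was also tested on simulated data. filterByExpr removed 0 genes. Replicates differed by more than sampling noise (chi-square per degree of freedom 1.44 to 2.88). Genes and lists were chosen with earlier results of these data known. Per-library values were given for the 12 lowest ratios, the 6 highest EV means, up to 4 genes per list and any gene called in LSD1+8a against LSD1, some shortened to means or ratios. The lists of cilium, axoneme and centrosome genes and of unfolded protein sensing and oxidation, and other genes named, were chosen after values were seen. Some results are not reported here. Symbols matched RefSeq or GENCODE names for 135 of 180 genes, under the share needed for a check of GC content or length, which is void. Alternatives were other normalizations and filters, DESeq2 1.42.0, limma 3.58.1 (voom, and trend on log2(TPM + 1) and log2(TPM + 0.1)), a replicate block and leaving out each library.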

Additional observations from a re-analysis of the deposited data

How the results depend on the processing

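The rule took 198 genes with TMM-scaled CPM, 190 without mitochondrial counts and 180 at an EV minimum of 1 CPM, close to the 180 reported, but 74 at a ratio of 0.75, 606 at 0.90 and 55 at an EV mean of 10 CPM. On TPM it took 233, of which 98 were shared. With 1 library left out it took 237 to 295 genes, most of them (295) without SRRM4 replicate 3, since fewer libraries make the rule easier to meet.

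Genes called lower in SRRM4 against EV numbered 26 with DESeq2, 13 on log2(TPM + 1) and 14 on log2(TPM + 0.1), and 30 to 45 with a library left out (30 without SRRM4 replicate 2). Against LSD1+8a they numbered 7 and 8 on the same 2 TPM scales and 21 to 31 with a library left out (21 without SRRM4 replicate 2). Against LSD1 they numbered 19 with DESeq2, 10 on both TPM scales and 18 to 31 with a library left out (22 without SRRM4 replicate 1 and 18 without SRRM4 replicate 2). In the fits without a library left out, the shares of all genes called lower were 0.546 to 4.32% against EV. They were 0.554 to 3.82% against LSD1+8a and 0.431 to 3.27% against LSD1. The single call in LSD1+8a against LSD1 became 0 with DESeq2 and on both TPM scales, and 0 to 2 with a library left out. It was 2 (PPP1R3B and RP11-231C14.3) without LSD1+8a replicate 1 and 0 without LSD1+8a replicate 3 or LSD1 replicate 1. The 0 calls in LSD1+8a against EV became 1 with DESeq2, limma-voom or the replicate block, and 0 to 1 with a library left out (1 without LSD1+8a replicate 1). The 0 calls in LSD1 against EV became 1 when only those groups were fitted, stayed at 0 with any library left out, and DESeq2 gave no adjusted p there. On TPM the direction turned for 3 genes, ARAP2, AKAP6 and CCDC30 (ratios 1.74, 1.16 and 1.23), and the median log2 fold change of the 180 genes in LSD1+8a against LSD1 was -0.01 on both TPM scales and 0.01 in the fit reported. The causes were not tested.

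Replicate numbers did not pair the libraries: 0 of 18 same-number pairs had a correlation over 0.1 (-0.231 to 0.0866), and 1 of 12 libraries correlated best with its own number. With the replicate block, 51 genes were called lower in SRRM4 against EV. Low counts limit the 74 genes at 2 to 5 CPM.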
